A study of Macaca mulatta with 16 samples.

Results

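The lungs of 3 fetal rhesus macaques exposed to 1 mg of intraamniotic lipopolysaccharide (LPS), whose dams were also injected in the muscle with 0.125 mg/kg of betamethasone-acetate (Beta-Ac), a long-acting corticosteroid, were compared with the lungs of 2 untreated fetuses delivered near term. These 5 animals were taken from the 16 sequenced by their labels alone. The LPS + Beta-Ac animals (248, 249 and 255) were treated at 126 or 127 days of gestation and delivered 5 days later, at 131 or 132 days. The term controls (200 and 201) were delivered at 156 and 157 days. The reference was lung from 4 untreated preterm controls delivered between 131 and 135 days and from 3 animals delivered 5 days after the same LPS without Beta-Ac, at 131 to 134 days. The 4 remaining animals, delivered 16 hours after LPS, entered the filter for low counts, the scaling and the estimate of the spread, but no comparison. LPS is the bacterial cell wall component that triggers innate immunity, and the model is a single exposure without live bacteria. The treated fetuses were younger at delivery than the term controls, so treatment and gestational age cannot be told apart in this comparison. Animals given Beta-Ac alone were not analysed here.

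Before birth the lung thins its mesenchyme, slows cell division and begins to make surfactant, the lipid and protein film of the alveolar type 2 cell that keeps airspaces open. Antenatal corticosteroids and inflammation of the amniotic cavity can each bring parts of this programme forward. The question of the comparison is where a lung matured by both exposures differs from a lung that reached term without them.

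Each animal gave 1 library of lung RNA, with 24354892 to 27408405 counts on genes with LPS + Beta-Ac and 25883623 and 27616930 at term. The surfactant protein gene SFTPB stood between 3668 and 7649 CPM (counts divided by the scaled library size) in all 5 animals, and the heart troponin gene TNNT2 between 3.02 and 5.66. In the LPS group without Beta-Ac, TNNT2 reached 80.4 CPM in 1 animal. The term controls were less alike than the treated animals. The median gene differed by 0.32 (absolute log2 difference) between the term controls, by 0.22 to 0.26 between LPS + Beta-Ac animals, and by 0.28 to 0.42 between an animal of each group. The labels give no sex. The Y-linked ribosomal gene RPS4Y1 stood at 508 CPM in LPS + Beta-Ac animal 249 and at 356 in term control 201, against 0.528 in animal 248, 6.09 in animal 255 and 0.883 in term control 200. With 3 animals against 2, an exact permutation test of a single value cannot go below p = 0.2 when its one-sided p is doubled. Single genes were therefore tested in a model fitted with limma across all genes and all 16 animals.

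Genes called higher in LPS + Beta-Ac than in term lungs included the immune or inflammation-induced genes SOD2, C3, CXCL13 and CD163. Genes called lower included the immediate early genes FOSB, EGR1, NR4A2 and JUND. No gene of the surfactant, collagen, elastic fibre and proliferation lists was called. That does not show a match to term, since only 0.568% of all genes tested were called. In 19 of the 28 proliferation genes all treated animals lay above both term controls, beside 15.6% of all genes. Of 19199 genes tested, 109 (0.568%) were called different, which required a p under 0.05 after Benjamini-Hochberg adjustment together with a difference of 2-fold or more. The call was higher after LPS + Beta-Ac for 72 genes (0.375%) and lower for 37 (0.193%). Scaling by total counts alone gave 48 higher and 43 lower, so the share of higher calls was 66.1% with the scaling used and 52.7% without it. In the same fit 1246 genes (6.49%) separated LPS + Beta-Ac from preterm controls and 397 (2.07%) separated term from preterm controls. The last 2 counts share the preterm controls.

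**Figure D1:**
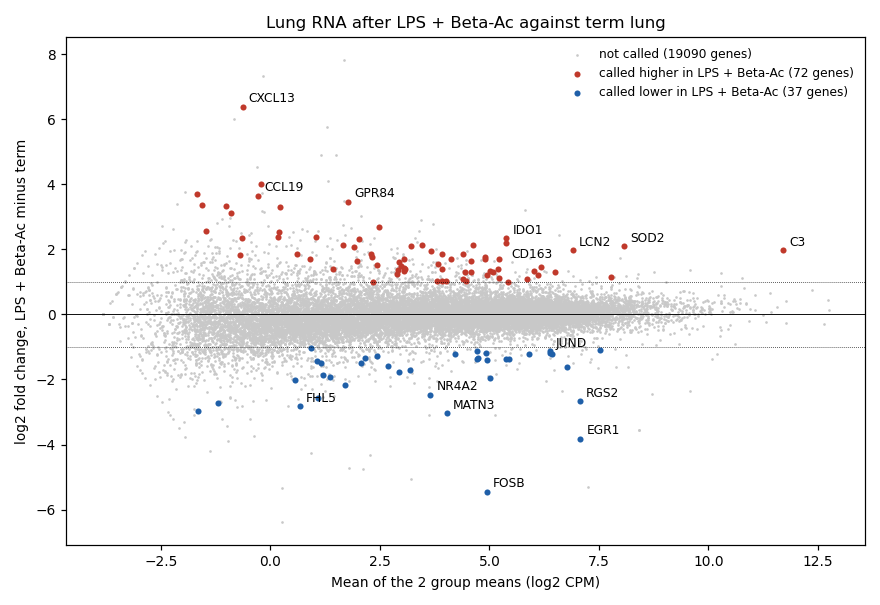
Each point is 1 of 19199 genes, with the mean of both group means (log2 CPM) on the x axis and the log2 fold change of LPS + Beta-Ac against term on the y axis. Dotted lines mark a fold change of 2, the 72 red points are genes called higher and the 37 blue points genes called lower, and several grey genes with larger fold changes were not called.

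The counts rested on few animals. Without term control 201, 17 genes were called, and without LPS + Beta-Ac animal 248, 25 were called. Without animal 249 the count was 61, without animal 255 it was 118, and without term control 200 it was 127, of which 114 were higher. All 109 genes kept their sign when any of the 5 animals was left out. The calls of CXCL13, DRAXIN, SOD2 and C3, all higher after LPS + Beta-Ac, held whichever animal was left out. Calls of 18 genes, among them FOSB, RGS2 and LCN2, were lost each time. A fit to the 5 animals alone, with fewer animals behind the spread, called 13 genes, of which 3 were among the 109.

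SOD2, C3 and CXCL13 were the immune or inflammation-induced genes with calls that no left-out animal removed. Under the other alternatives SOD2 was the only one of these genes called each time. C3 was lost in the fit of the 5 animals alone (adjusted p = 0.0586), and CXCL13 there, with limma-voom and with sample quality weights (adjusted p of up to 0.382). In bulk RNA, as in all results here, fewer cells of a type and less RNA per cell cannot be told apart. SOD2 (ENSMMUG00000050418), the mitochondrial superoxide dismutase that inflammation induces, stood at 654, 580 and 454 CPM after LPS + Beta-Ac and at 130 and 131 CPM at term. The groups were far apart, and the difference was 2.09 ± 0.17 on the log2 scale (SE, adjusted p = 7.48e-05), a 4.26-fold higher level. C3 (ENSMMUG00000008693), the central component of complement, stood at 7979, 5566 and 6615 CPM against 1468 and 1969 CPM, which is 3.91-fold higher (log2 fold change 1.97 ± 0.22, adjusted p = 0.00129). CXCL13 (ENSMMUG00000023186), a chemokine that attracts B cells, had 20.05, 2.14 and 4.55 CPM after LPS + Beta-Ac and no count in either term control. Set against 3 counts per term library of mean depth, its level was at least 86.3-fold higher (adjusted p = 0.00398), and at least 32.4-fold higher without animal 248. Preterm controls stood at 69.7 to 91.8 CPM for SOD2, 999 to 1193 CPM for C3 and at most 0.0729 CPM for CXCL13, so the untreated lungs of both ages lay below every LPS + Beta-Ac animal for all 3 genes.

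DRAXIN, a secreted guidance and Wnt inhibitor protein named after its values were seen, stood at 1.24, 0.834 and 1.00 CPM and was almost without counts at term, at 0.0368 and 0.0324 CPM (adjusted p = 0.00352), a call lost in the fit of the 5 animals alone and with sample quality weights. Preterm controls had 0.556 to 1.03 CPM of DRAXIN, close to the LPS + Beta-Ac animals.

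Of 29 genes of macrophages and other myeloid cells tested, CD163, MS4A7, C1QC and C1QB were called higher after LPS + Beta-Ac, none was called lower, and 25 did not pass. Of the 29, 28 had a positive log2 fold change, and the median was 1.09 against -0.01 over all genes tested. In 20 of the 29 all treated animals lay above both term controls, which was the case for 15.6% of all genes. CD163, the haemoglobin scavenger receptor of macrophages, which glucocorticoids induce, stood at 92.9, 123 and 62.0 CPM against 21.6 and 17.1 CPM at term (4.63-fold, adjusted p = 0.0224). MS4A7, a membrane protein of macrophages, stood at 45.4, 51.7 and 27.6 CPM against 16.4 and 7.51 CPM (log2 fold change 1.85 ± 0.34, adjusted p = 0.0236). C1QC and C1QB, which code for chains of the first complement component, were 3.42-fold and 3.28-fold higher (adjusted p = 0.0236 and 0.0437). Treated animal 255 was the lowest of its group and term control 200 the higher of the pair for all 4 genes.

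The summed level of the 29 myeloid genes was 1825, 2176 and 1241 CPM after LPS + Beta-Ac, 1175 and 691 CPM at term and 426 to 523 CPM in preterm controls. No gene of the list was at 0 in any of the 5 animals compared. The part of myeloid cell number in the results for single immune genes was not tested. The calls of CD163, MS4A7, C1QB and C1QC were lost without term control 201 and without animals 248 or 249, with adjusted p values of up to 0.162, 0.232, 0.356 and 0.228. Without term control 200, 10 of the 29 genes were called, and without animal 255, 9 were called.

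**Figure D2:**
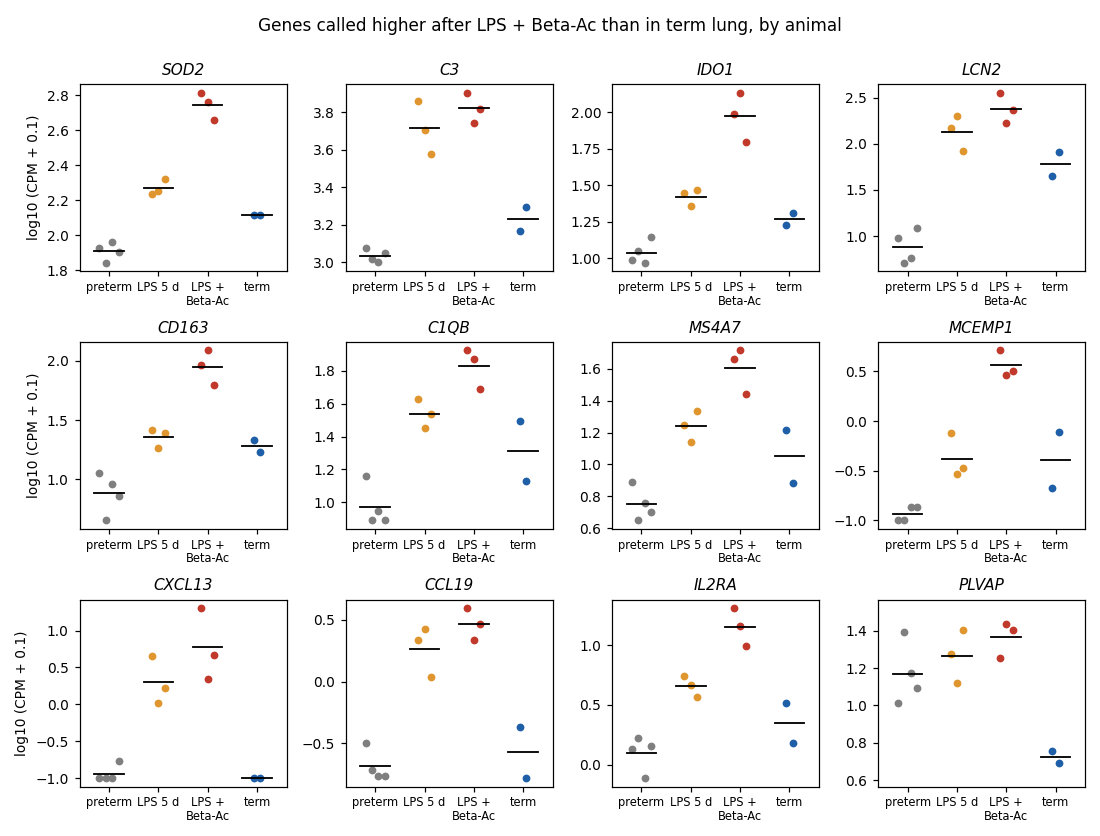
The 12 panels show genes called higher after LPS + Beta-Ac than at term, with log10 (CPM + 0.1) on a y axis of its own range in each panel, 1 point per animal and a line at each group's mean (4 preterm, 3 LPS at 5 days, 3 LPS + Beta-Ac and 2 term animals). In every panel the 3 LPS + Beta-Ac points lie above both term points, and in the panel of PLVAP the preterm points also lie above them.

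Of 22 neutrophil genes tested, FPR2 and LCN2 were called higher, beside 0.375% of all genes. The log2 fold change was positive for 18 and negative for 4, and the median was 0.80. In 9 of the 22 all treated animals lay above both term controls, beside 15.6% of all genes. FPR2, a receptor for formylated peptides of bacteria, stood at 6.67, 3.73 and 1.58 CPM after LPS + Beta-Ac and at 0 and 0.583 CPM at term (log2 fold change 4.03 ± 0.78, adjusted p = 0.0308). LCN2, which withholds iron from bacteria, stood at 358, 166 and 229 CPM against 44.5 and 82.4 CPM (3.94-fold, adjusted p = 0.0493), and its call was lost whichever animal was left out. MCEMP1, a membrane protein of myeloid cells, stood at 5.05, 2.83 and 3.12 CPM against 0.110 and 0.680 CPM (adjusted p = 0.0138), and GPR84, a receptor for medium-chain fatty acids, at 14.96, 12.8 and 7.36 CPM against 3.46 and 0.227 CPM (adjusted p = 0.0344). The granule genes MPO, ELANE, AZU1 and PRTN3, enzymes of immature neutrophils named after their values were seen, were not called. The call of FPR2 was lost without term control 200 or animals 248 or 249, that of MCEMP1 without term control 200 or animal 248, and that of GPR84 without term control 201 or animals 248 or 249. Among genes chosen after their values were seen, TREM1 (adjusted p = 0.0527) and MMP9 (adjusted p = 0.195) had large but uncalled differences. MMP9 ranged from 106 to 308 CPM after LPS + Beta-Ac and stood at 105 CPM in term control 200 but at 3.20 CPM in term control 201. The summed neutrophil level was 1228, 779 and 647 CPM after LPS + Beta-Ac, against 336 and 334 CPM at term.

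Of 40 cytokine and chemokine genes tested, CXCL13, CCL19 and IL1A were called higher, beside 0.375% of all genes, and none lower. The log2 fold change was positive for 26 and negative for 14, with a median of 0.43. In 18 of the 40 all treated animals lay above both term controls and in 6 all lay below, beside 15.6% and 17.4% of all genes. CCL19, which guides T cells and dendritic cells, stood at 3.84, 2.07 and 2.85 CPM against 0.331 and 0.0647 CPM at term (12.5-fold, adjusted p = 0.00597). Its call was lost without term control 201 (adjusted p = 0.0753). IL1A, an alarmin of the interleukin 1 family, stood at 2.15, 0.870 and 1.85 CPM against 0.0736 and 0.162 CPM, which are 2 and 5 counts (adjusted p = 0.0186), and it kept its call only without animals 249 or 255. IL1B, IL6 and CXCL8 were not called. IL1B, chosen after its values were seen, stood at 38.1, 6.42 and 11.9 CPM against 1.99 and 7.09 CPM (adjusted p = 0.199), and the groups overlapped. IL6, chosen likewise, stood at 1.13, 0.254 and 0.231 CPM against 1.03 and 0.744 CPM. CXCL8, also chosen so, had a log2 fold change of 2.36 ± 0.60 (adjusted p = 0.0878).

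Single genes that lymphocytes and dendritic cells use were called, while the lymphocyte and interferon lists as a whole held 1 call. IDO1, which degrades tryptophan and is induced by interferon gamma, stood at 97.1, 136 and 62.9 CPM after LPS + Beta-Ac and at 16.8 and 20.4 CPM at term (5.07-fold, adjusted p = 0.00935). It was the only called gene among 23 interferon response genes, whose median was 0.08, and its call was lost without term control 201 (adjusted p = 0.0531). IL2RA, the high-affinity chain of the interleukin 2 receptor, stood at 20.3, 14.2 and 9.68 CPM against 3.16 and 1.42 CPM (6.44-fold, adjusted p = 0.0301). BATF, a transcription factor of activated lymphocytes and dendritic cells, was 5.17-fold higher (adjusted p = 0.0492). CLEC9A and XCR1, named after their values were seen, mark the dendritic cells that present antigen to cytotoxic T cells, and were 3.61-fold and 3.07-fold higher (adjusted p = 0.0104 and 0.0292). The calls of IL2RA and BATF were lost without term control 201 or animals 248 or 249, that of CLEC9A without term control 201, and XCR1 was called only without animal 255. None of 31 lymphocyte genes was called, and their median was 0.36. All 11 antigen presentation genes had positive log2 fold changes without a call. Their highest member, B2M, stood at 1775, 2222 and 1745 CPM against 1546 and 1458 CPM (adjusted p = 0.395), and CD74, the chaperone of class II molecules, at 875, 884 and 534 CPM against 448 and 308 CPM (adjusted p = 0.0757).

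All calls among acute phase, antimicrobial and complement genes were higher, beside 0.375% of all genes tested that were called higher. Among 21 acute phase and antimicrobial genes, C3, LCN2 and SAA2 were called higher and none lower, with a median of 0.99. SAA2, a serum amyloid A gene with a close copy, SAA1, that can share its reads, stood at 2.79, 0.218 and 1.66 CPM and had 1 count in term control 200 and none in term control 201 (adjusted p = 0.0312). It was called only without animal 249. SCGB1C1, a secretoglobin of the airway surface, stood at 2.03, 1.45 and 1.12 CPM, against 2 and 3 counts at term (adjusted p = 0.0385), and lost its call whichever animal was left out. Among 30 complement and coagulation genes, C3, C3AR1, C1QC and C1QB were called higher and none lower, with a median of 0.72. C3 is also on the acute phase list, and C1QC and C1QB are also on the myeloid list. C3AR1, the receptor for the C3a fragment, stood at 32.8, 36.5 and 20.1 CPM against 13.8 and 4.53 CPM (3.63-fold, adjusted p = 0.0430). Its call was lost without term control 201 and without animals 248 or 249 (adjusted p of up to 0.356).

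For some genes called higher the preterm controls overlapped with the treated animals. PLVAP, which forms the diaphragms of fenestrated and immature capillaries, stood at 17.8, 27.2 and 25.1 CPM after LPS + Beta-Ac, 5.63 and 4.86 CPM at term (4.36-fold, adjusted p = 0.0142) and 10.1 to 24.7 CPM in preterm controls. FGF18, a growth factor of the distal lung mesenchyme, stood at 7.01, 6.38 and 8.10 CPM against 3.57 and 3.46 CPM (2.01-fold, adjusted p = 0.0224), with 6.34 to 7.78 CPM in preterm controls. MARCHF4, a ubiquitin ligase, stood at 3.09, 3.92 and 1.54 CPM against 0.552 and 0.291 CPM (adjusted p = 0.0385), with 3.12 to 7.46 CPM in preterm controls. WNT11 and SFRP4, a ligand and a secreted modulator of Wnt signalling, were 2.77-fold and 4.38-fold higher than at term (adjusted p = 0.0133 and 0.0264) and were named after their values were seen. Their levels in preterm controls were 86.0 to 124 CPM and 51.9 to 73.8 CPM, against 103 to 133 CPM and 40.9 to 62.1 CPM after LPS + Beta-Ac. The call of PLVAP was lost without term control 201 (adjusted p = 0.118). FGF18 kept its call only without animal 249, MARCHF4 only without animal 255, SFRP4 only without animal 249, and WNT11 without animals 249 or 255.

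Other higher genes followed no list. SRRM4, a splicing factor best known from neurons, stood at 8.48, 8.81 and 9.79 CPM against 0.993 and 2.98 CPM (5.04-fold, adjusted p = 0.0308). SLCO4A1, an organic anion transporter, was 5.18-fold higher (adjusted p = 0.0142), and MYBPC2, a myosin binding protein, 5.08-fold higher at 1.09 to 1.62 CPM (adjusted p = 0.0463). BBC3, a promoter of apoptosis, and CASP4, a caspase that senses LPS inside cells, were called higher by 2.70-fold and 2.01-fold (adjusted p = 0.0224 and 0.00935), and both calls were lost without term control 201 or animal 248. SRRM4 was called only without term control 201, MYBPC2 only without term control 200, and SLCO4A1 only without animals 249 or 255. SOD2 was the only called gene of 21 antioxidant genes, and CD163 the only called gene of 31 glucocorticoid response genes. The median over the glucocorticoid list was -0.10, and PER1, a clock gene that glucocorticoids induce, stood at 238, 271 and 306 CPM against 371 and 238 CPM at term.

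Immediate early genes are transcription factors and other genes that cells switch on within minutes of a stimulus. Of 21 tested, FOSB, EGR1, NR4A2 and JUND were called lower after LPS + Beta-Ac than at term, none was called higher and 17 did not pass. Of the 21, 18 had a negative log2 fold change, and the median was -1.13. In 12 of the 21 all treated animals lay below both term controls, which was the case for 17.4% of all genes. FOSB stood at 9.72, 1.85 and 5.24 CPM after LPS + Beta-Ac and at 403 and 104 CPM at term (log2 fold change -5.46 ± 1.01, adjusted p = 0.0301). EGR1 stood at 91.2, 16.1 and 31.4 CPM against 905 and 287 CPM (log2 fold change -3.83 ± 0.79, adjusted p = 0.0486). NR4A2 stood at 7.12, 2.83 and 7.33 CPM against 42.4 and 20.5 CPM, and JUND at 52.1, 59.3 and 57.0 CPM against 159 and 95.4 CPM (adjusted p = 0.0224 for each). Term control 200 was the highest animal for all 4 genes. FOS itself, named after its values were seen, stood at 73.6, 10.6 and 18.2 CPM against 1581 and 587 CPM and was not called (adjusted p = 0.0855).

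For these 4 genes the term controls, not the treated animals, stood apart from untreated preterm lung. The preterm controls had 2.13 to 12.2 CPM of FOSB, 24.5 to 111 CPM of EGR1, 6.38 to 13.4 CPM of NR4A2 and 42.9 to 66.0 CPM of JUND. The summed level of the 21 genes was 1197, 958 and 1053 CPM after LPS + Beta-Ac, 6635 and 3022 CPM at term and 730 to 1879 CPM in preterm controls. Without term control 200 no gene of the list was called. FOSB lost its call whichever animal was left out, EGR1 kept it only without animal 248, NR4A2 lost it without either term control, and JUND lost it without term control 200 or animal 248.

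**Figure D3:**
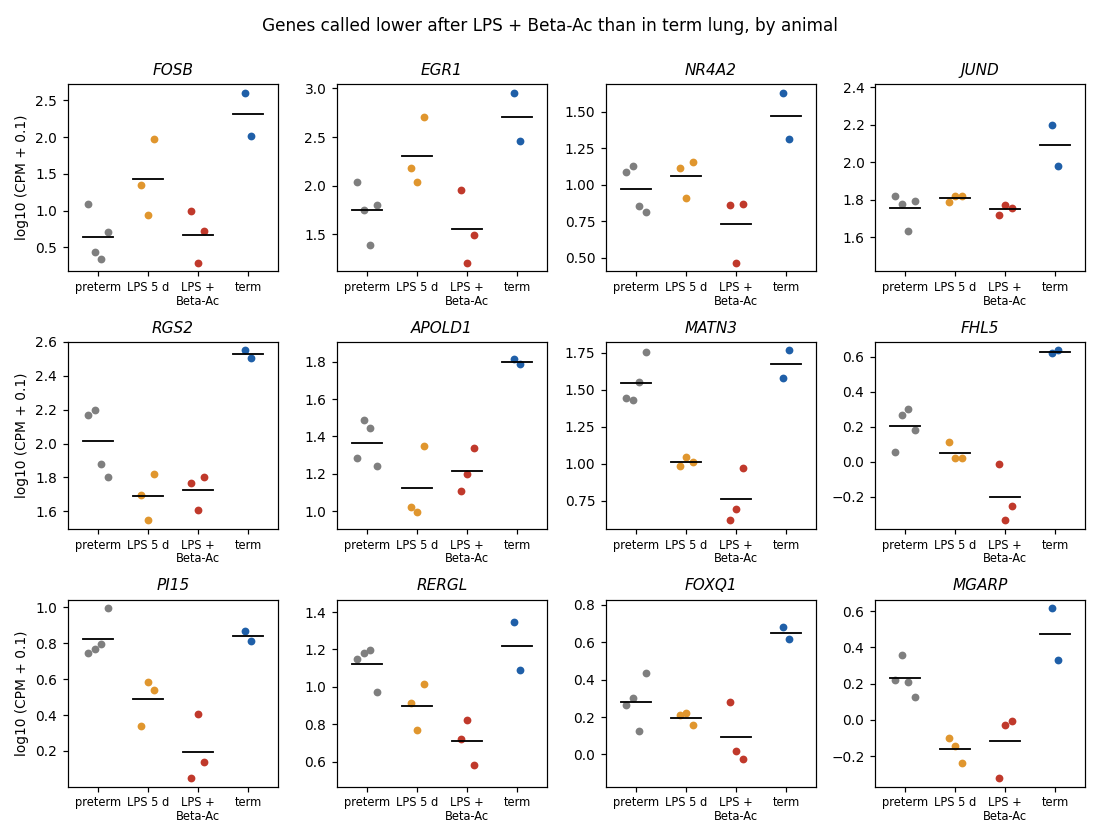
The 12 panels show genes called lower after LPS + Beta-Ac than at term, drawn as in the panels of the higher genes, with log10 (CPM + 0.1) on the y axis and a line at each group's mean. The term points of FOSB, EGR1, NR4A2 and JUND lie above all 4 preterm points, whereas those of MATN3, PI15 and RERGL lie among or beside them.

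For some genes called lower the treated animals lay below the untreated lungs of both ages. MATN3, a matrix protein of cartilage, stood at 4.03, 4.82 and 9.18 CPM after LPS + Beta-Ac, 37.7 and 58.0 CPM at term (8.22-fold lower, adjusted p = 0.0133) and 27.0 to 56.4 CPM in preterm controls. It was the only called gene of 13 cartilage genes. PI15, a secreted protease inhibitor, stood at 1.02, 2.43 and 1.27 CPM, against 7.32 and 6.41 CPM at term and 5.44 to 9.80 CPM in preterm controls (4.49-fold lower than at term, adjusted p = 0.0224). RERGL, a Ras-related gene of smooth muscle, stood at 5.16, 6.53 and 3.74 CPM, against 22.2 and 12.2 CPM at term and 9.33 to 15.6 CPM in preterm controls (3.25-fold lower than at term, adjusted p = 0.0292). Against preterm controls the log2 fold changes of MATN3, PI15 and RERGL were -2.62, -2.11 and -1.39 (adjusted p = 0.000524, 0.000535 and 0.00278).

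For the rest of the named lower genes, apart from MGARP, both term controls lay above all preterm controls as well. RGS2, a brake on G protein signalling, stood at 58.1, 40.2 and 63.2 CPM after LPS + Beta-Ac, 355 and 321 CPM at term (6.38-fold lower, adjusted p = 0.0487) and 63.6 to 157 CPM in preterm controls. APOLD1, an endothelial gene that responds early to stimuli, stood at 12.7, 15.7 and 21.7 CPM against 64.8 and 61.1 CPM (3.85-fold lower, adjusted p = 0.0186). FHL5, a transcriptional cofactor, stood at 0.867, 0.363 and 0.463 CPM against 4.08 and 4.24 CPM (7.05-fold lower, adjusted p = 0.00597) and was the lower gene with the smallest adjusted p. SULT4A1, a sulfotransferase, FOXQ1, a forkhead transcription factor, and MGARP, a mitochondrial protein, were 5.96-fold, 3.67-fold and 4.04-fold lower (adjusted p = 0.0224, 0.0236 and 0.0343). Also lower, and named after their values were seen, were ANGPT2, which loosens vessels, at 13.9 to 18.3 CPM against 41.8 and 43.1 CPM (adjusted p = 0.0186), ADAMTS1, a matrix protease (3.05-fold, adjusted p = 0.0228), and MSMO1, an enzyme of cholesterol synthesis (2.58-fold, adjusted p = 0.0236). FHL5 lost its call only without term control 201 (adjusted p = 0.0531), and MATN3 without term control 201 or animal 248. RGS2 lost it whichever animal was left out, and the calls of APOLD1, PI15, SULT4A1, ANGPT2 and ADAMTS1 were lost without either term control and without animal 248. RERGL, MGARP, FOXQ1 and MSMO1 were called in 1 of the 5 fits that leave out an animal.

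No gene of the surfactant and lamellar body list was called different from term. The list holds 18 tested genes, with a median log2 fold change of 0.36 against term, and 1.08 for LPS + Beta-Ac and 0.63 for term against preterm controls. SFTPB, needed to spread surfactant, stood at 7649, 6326 and 6645 CPM after LPS + Beta-Ac and at 4579 and 3668 CPM at term (log2 fold change 0.74 ± 0.24, adjusted p = 0.173). SFTPD, a collectin of lung defence, stood at 2757, 2374 and 2032 CPM against 1232 and 1491 CPM (0.81 ± 0.27, adjusted p = 0.185). ABCA3, the lipid pump of lamellar bodies, stood at 663, 400.1 and 586 CPM against 324 and 332 CPM (0.71 ± 0.23, adjusted p = 0.167). All treated animals lay above both term controls for these 3 genes. With 3 animals against 2 the 95% intervals reached from 0.22 to 1.26 for SFTPB, from 0.23 to 1.38 for SFTPD and from 0.22 to 1.202 for ABCA3.

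In 6 of the 18 genes all treated animals lay above both term controls and in 3 all lay below, beside 15.6% and 17.4% of all genes. SFTPA1 stood at 11668, 10358 and 4056 CPM against 8090 and 4209 CPM (log2 fold change 0.43 ± 0.70), and SFTPC, the protein restricted to type 2 cells, at 7215, 6919 and 3895 CPM against 7550 and 6759 CPM (-0.30 ± 0.47). LPCAT1, which remodels surfactant phospholipid, differed by 0.19 ± 0.32. LAMP3, a lamellar body protein, stood at 101, 76.5 and 52.6 CPM, below both term controls at 117 and 154 CPM (-0.86 ± 0.53, adjusted p = 0.473). The smallest adjusted p of the list belonged to ETV5, a transcription factor of type 2 cells, chosen after its values were seen, at 91.2, 75.0 and 53.4 CPM against 140 and 128 CPM (-0.90 ± 0.24, adjusted p = 0.0940). The summed level of the 18 genes overlapped between the groups, at 34935, 30023 and 20858 CPM after LPS + Beta-Ac and 25128 and 19641 CPM at term, and was 7923 to 13302 CPM in preterm controls.

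**Figure D4:**
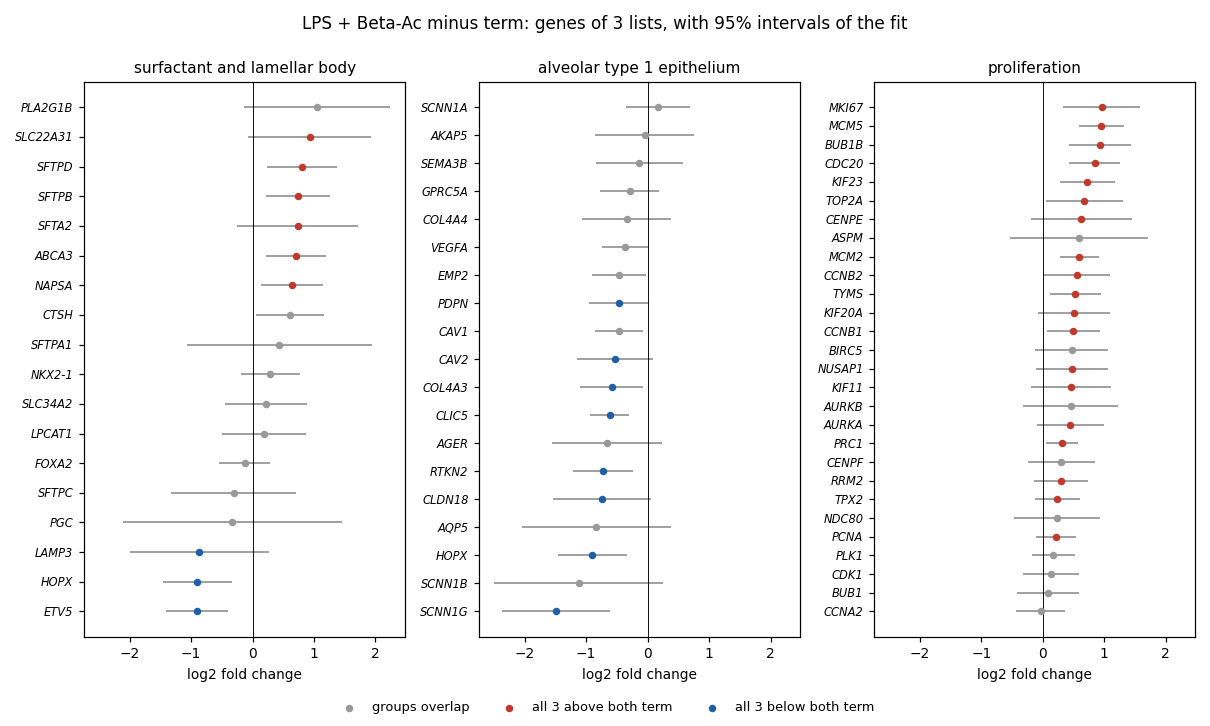
Log2 fold changes of LPS + Beta-Ac against term on the x axis for each tested gene of the surfactant, alveolar type 1 and proliferation lists, with 95% intervals of the fit. Red genes had all 3 treated animals above both term controls and blue genes all 3 below, and no gene in the 3 panels was called.

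Of 19 tested alveolar type 1 genes, those of the flat gas-exchange cells, none was called, 18 had a negative log2 fold change against term and the median was -0.53. In 8 of the 19 all treated animals lay below both term controls, beside 17.4% of all genes. AGER, a receptor abundant on these cells, stood at 1055, 1485 and 599.5 CPM against 1983 and 1196 CPM, and the groups overlapped (adjusted p = 0.497). CAV1, a caveolar protein, stood at 975, 1227 and 1031 CPM against 1217 and 1804 CPM (adjusted p = 0.258), and VEGFA, the vascular growth factor these cells release, at 1001, 1194 and 1037 CPM against 1671 and 1159 CPM (adjusted p = 0.344). CLIC5, chosen after its values were seen, had the smallest adjusted p, 0.0693, at 646, 649 and 537 CPM against 935 and 930 CPM. The summed level of the list was 5367, 6652 and 4695 CPM after LPS + Beta-Ac, 8520 and 7356 CPM at term and 6520 to 7236 CPM in the preterm controls. Against preterm controls the median was 0.04 for LPS + Beta-Ac and 0.51 for term. The 1 list gene called without term control 201 was not called in any other fit that leaves out an animal. Of 22 genes of lipid synthesis none was called, with a median of -0.29. The most abundant, FASN and FABP5, stood at 193 to 272 CPM against 174 and 208 CPM, and at 169 to 229 CPM against 199.7 and 212 CPM.

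Cell cycle genes were between preterm and term. Of 28 proliferation genes, none was called against term, although 27 had a positive log2 fold change with a median of 0.47, and in 19 all treated animals lay above both term controls, beside 15.6% of all genes. Their summed level was 311, 316 and 317 CPM after LPS + Beta-Ac, 222 and 247 CPM at term and 443 to 586 CPM in preterm controls, so no treated animal overlapped with either control group. Against preterm controls the median was -0.90 with 10 genes called lower after LPS + Beta-Ac, and -1.22 with 18 called lower at term. Over all 19199 genes tested, 468 and 183 were called lower in these comparisons. The most abundant members, PRC1 and PCNA, stood at 39.5 to 39.6 CPM against 30.5 and 33.2 CPM, and at 32.0 to 33.3 CPM against 27.0 and 28.6 CPM (adjusted p = 0.256 and 0.535). MCM5, part of the helicase that opens replication origins, was chosen after its values were seen. It passed the adjusted p threshold but not the fold minimum, at 14.7, 15.3 and 14.8 CPM against 7.98 and 7.38 CPM (log2 fold change 0.95 ± 0.17, adjusted p = 0.0224). MKI67, chosen in the same way, stood at 27.7, 22.1 and 24.2 CPM against 10.3 and 15.3 CPM (adjusted p = 0.146).

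The fibrillar collagen genes COL1A1, COL1A2 and COL3A1 overlapped between treated and term lungs, while ELN was higher in every treated animal than in both term controls. In both groups these genes lay below preterm lung. None of 32 interstitial collagen and matrix genes, 17 elastic fibre genes and 18 basement membrane genes was called against term, with medians of 0.17, 0.19 and 0.15. COL1A1 stood at 2277, 1460 and 1639 CPM after LPS + Beta-Ac, 1717 and 1157 CPM at term and 2811 to 5810 CPM in preterm controls. COL1A2 and COL3A1, the other fibrillar collagen genes named, differed from term by 0.21 ± 0.31 and 0.23 ± 0.25 on the log2 scale. SPARC, which binds collagen, stood at 2182 to 2468 CPM against 2653 and 2903 CPM. ELN, the elastin gene, stood at 1832, 1660 and 1728 CPM, above both term controls at 1371 and 1236 CPM and below the preterm controls at 2572 to 3364 CPM (log2 fold change against term 0.42 ± 0.15, adjusted p = 0.217). LTBP4 stood at 619 to 636 CPM against 593 and 700.2 CPM, and the basement membrane genes COL4A1 and COL4A2 differed from term by 0.33 ± 0.21 and 0.15 ± 0.15. The interval of the difference reached up to 1.13 for COL1A1 and 0.74 for ELN, so the interval of COL1A1 includes a 2-fold difference.

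Growth signals of the mesenchyme differed in single genes. Besides FGF18, none of 41 genes was called, and the median was -0.10. FGF10, which drives branching and distal progenitors, stood at 7.76, 4.89 and 7.06 CPM against 10.8 and 11.8 CPM at term and 10.3 to 16.1 CPM in preterm controls (log2 fold change against term -0.80 ± 0.28, adjusted p = 0.205). FGF9 stood at 2.56, 1.31 and 1.54 CPM against 3.57 and 3.59 CPM (-1.02 ± 0.46, adjusted p = 0.325). Both genes had all treated animals below both term controls. None of 17 fetal growth genes was called, and IGF2 and IGFBP5 overlapped between the groups, at 249 to 517 CPM against 354 and 609 CPM, and at 512 to 803 CPM against 642 and 985 CPM. None of 15 lipofibroblast genes (median -0.43) and 15 smooth muscle and pericyte genes (median 0.01) was called. MACF1 and APOE, the most abundant of the first list, and ACTA2 and MYH11, of the second, overlapped between the groups.

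**Figure D5:**
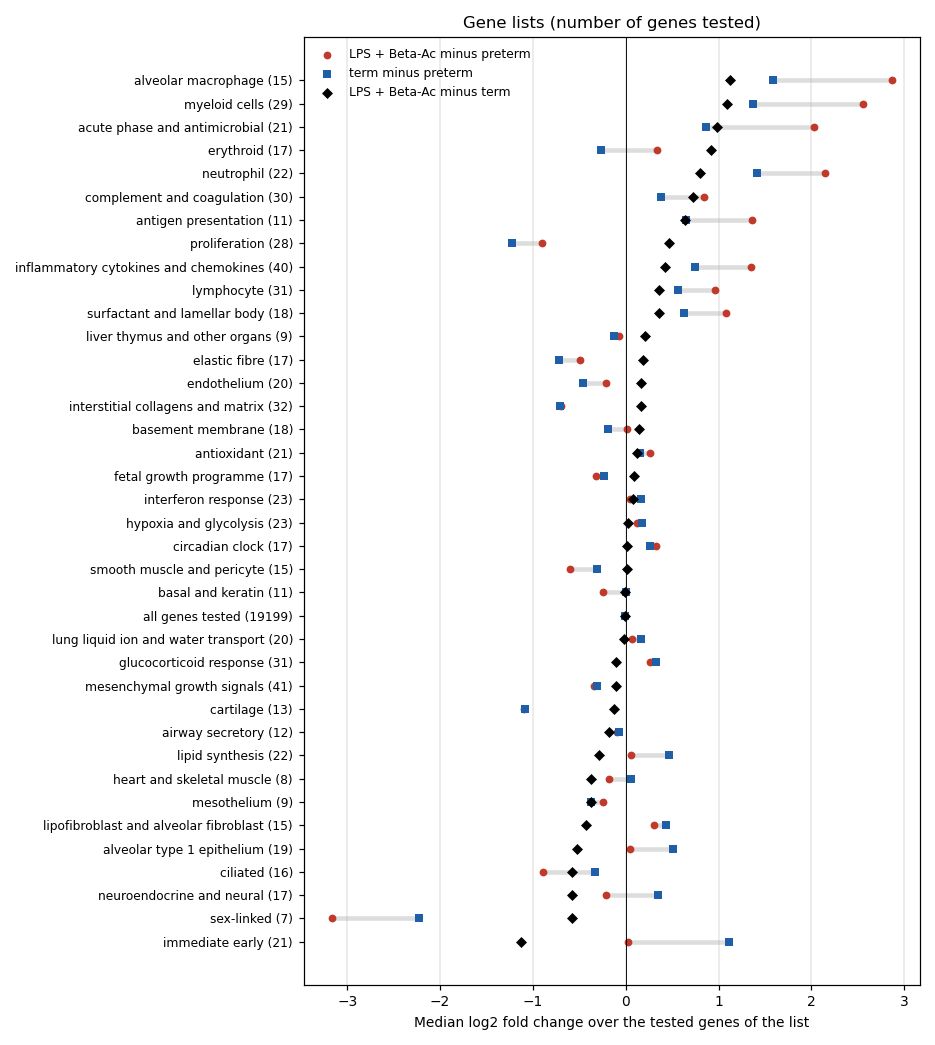
Each line is a gene list, or all genes tested, with its number of tested genes, and the x axis is the median log2 fold change over them for LPS + Beta-Ac against term (diamonds), LPS + Beta-Ac against preterm (circles) and term against preterm (squares), the last 2 sharing the preterm controls. The diamonds farthest to the right belong to the alveolar macrophage, myeloid, acute phase and erythroid lists and the diamond farthest to the left to the immediate early genes, while those of matrix lists lie near 0.

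Lists of other cell types held few calls. Of 17 erythroid genes none was called, but 14 had a positive log2 fold change, and the median was 0.92. In 8 of the 17 all treated animals lay above both term controls, beside 15.6% of all genes. HBE1, the embryonic beta-like globin, stood at 1894, 2454 and 1574 CPM against 921 and 711 CPM at term and 968 to 2132 CPM in preterm controls (adjusted p = 0.239). No deposited gene was paired with the symbols HBB, HBD, HBG1 or HBG2, and whether HBE1 holds reads of those globins was not tested. SELENBP1 stood at 472 to 569 CPM against 351 and 450 CPM. ALAS2, the first enzyme of haem synthesis in red cells, was chosen after its values were seen and stood at 42.8, 50.5 and 39.9 CPM against 12.7 and 10.4 CPM (adjusted p = 0.0868). None of 16 ciliated cell genes was called. Their median of -0.57 changed sign without term control 200, and their summed level was 213 to 291 CPM after LPS + Beta-Ac against 451 and 139 CPM. Of 17 neuroendocrine and neural genes, 16 had a negative log2 fold change and none was called. UCHL1 and PRPH, the most abundant, stood at 4.37 to 4.86 CPM against 5.47 and 8.61 CPM, and at 5.76 to 7.05 CPM against 8.35 and 9.12 CPM.

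Of 15 alveolar macrophage genes MCEMP1 and of 20 endothelial genes PLVAP was called, with medians of 1.13 and 0.17. The summed alveolar macrophage level was 646, 1248 and 572 CPM against 2006 and 306 CPM, so the term controls lay on either side of the treated animals. No gene was called among 20 ion and water transport, 12 airway secretory, 11 basal and keratin, 9 mesothelial, 17 circadian clock, 23 hypoxia and glycolysis, 8 heart and skeletal muscle, 9 other-organ or 7 sex-linked genes. Their most abundant members overlapped between the groups in most cases. AQP4, a water channel of the transport list, stood at 150 to 277 CPM against 249 and 255 CPM. WFDC2 and MUC20 of the secretory list stood at 156 to 312 CPM against 69.8 and 165 CPM, and at 43.1 to 106 CPM against 40.3 and 66.9 CPM. ITLN1, a mesothelial lectin, stood at 18.2, 60.1 and 19.2 CPM, below both term controls at 104 and 75.5 CPM, without a call (adjusted p = 0.225). LCK, a T cell kinase, stood at 48.9 to 56.5 CPM against 80.7 and 94.8 CPM (adjusted p = 0.327), and IL7R at 101 to 136 CPM against 102 and 215 CPM. EPAS1, a hypoxia factor, stood at 857 to 1068 CPM against 699.8 and 1186 CPM, and BHLHE40, a clock gene, at 86.0 to 154 CPM against 122 and 401 CPM.

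LPS at 5 days without Beta-Ac was compared with LPS + Beta-Ac at the same interval. Between LPS + Beta-Ac and LPS alone 17 genes were called (0.0885%), all higher with Beta-Ac. Of the 19199 genes tested, 924 had an unadjusted p below 0.05 in this limma comparison, where chance alone gives about 1 in 20. The count was 4 without animal 249, 5 without animal 248 and 57 without animal 255. SOD2 stood at 172 to 209 CPM after LPS alone, and the difference from LPS + Beta-Ac was 1.58 on the log2 scale (adjusted p = 0.000736). IDO1 stood at 22.6 to 29.2 CPM after LPS alone (1.83, adjusted p = 0.0362) and MCEMP1 at 0.192 to 0.654 CPM (3.22, adjusted p = 0.0234). RELT, a receptor of the tumour necrosis factor family named after its values were seen, differed by 1.04 (adjusted p = 0.0321). It was also called against term, at 2.65-fold higher (adjusted p = 0.00597), a call lost without term control 201 (adjusted p = 0.0531), and both comparisons use the same LPS + Beta-Ac animals. CD163 was near the threshold, at 18.4 to 26.1 CPM after LPS alone (1.97, adjusted p = 0.0506). C3 ranged from 3764 to 7286 CPM after LPS alone, LCN2 from 83.6 to 199.7 CPM, CCL19 from 0.998 to 2.57 CPM and CXCL13 from 0.960 to 4.47 CPM, and none of the 4 was called between both exposures.

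The mean of the LPS animals without Beta-Ac lay nearer to LPS + Beta-Ac than to term for 35 of the 37 genes called lower (94.6%) and for 33 of the 72 called higher (45.8%), beside 64.9% of all genes with a negative and 64.8% of those with a positive log2 fold change. The mean of the preterm controls lay nearer to term than to LPS + Beta-Ac for 62 of the 72 genes called higher (86.1%) and for 26 of the 37 called lower (70.3%). Over all genes tested the shares nearer to term were 56.6% of those with a positive and 57.7% of those with a negative log2 fold change. These are descriptions without a test, because the genes were chosen on the contrast between LPS + Beta-Ac and term.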

How the data were processed

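Total RNA from frozen fetal lung was polyA selected and sequenced as 75 bp paired-end reads. The authors assigned reads to the rhesus build Mmul_10 with kallisto and summed them per gene. The deposited table holds whole-number counts for 22515 genes in 16 animals, of which 629 had no count. Because its columns are named by bare animal numbers, the unit could not be verified automatically, so count models were not run. Symbols were paired with 17256 gene identifiers.

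Counts were scaled by trimmed mean of M values and expressed as log2 CPM with a prior count of 2. Genes under 0.371 CPM in all but 1 animal, or with a sum of under 15 counts, were dropped, and 19199 stayed. A limma (3.58.1, R 4.3.3) model with trend and robust variance was fitted to all 16 animals with 1 mean for each of the 5 groups, without covariates. A call needed a two-sided p under 0.05 after Benjamini-Hochberg adjustment and a 2-fold difference. The script was tested on simulated data. CPM per animal are scaled values, and fold changes come from the fitted log2 values. The labels give no batch, and nothing beyond the animal number says how samples were handled, so p-values measure the spread between these animals. Counting error was not given separately, and 2 term controls limit the precision of every comparison.

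Members and the 38 gene lists were chosen with earlier results of these data known. Named genes were the 12 called genes per direction with the largest fold change, non-overlapping groups and a mean of at least 4 counts in both groups. Up to 4 called genes per list, or its 2 most abundant genes where none was called, were added. So were genes the study discusses for maturation, and up to 4 genes per direction with under 4 counts in 1 group and at least 40 in the other. Alternatives changed the scaling, filter, prior count, animals, variance model and fold minimum. Results for some genes and 1 list are not reported here.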

Additional observations from a re-analysis of the deposited data

Results flagged for a closer look

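In the 4 preterm controls, which serve only as a reference here, 11 of 126 genes examined (8.73%) had 1 animal far from the other 3, with a gap to the nearest animal above Dixon's critical value, where chance gives about 1 in 20. Animal 092 stood at 17.5 CPM for C1QA (others 10.9 to 11.7), 14.5 CPM for C1QB (others 7.65 to 8.73) and 0.218 CPM for CCL19 (others 0.0710 to 0.0926). Animal 209 stood at 0.0729 CPM for CXCL13 (no count in the others), 3364 CPM for ELN (others 2572 to 2690), 9.80 CPM for PI15 (others 5.44 to 6.14) and 180.1 CPM for TF (others 29.1 to 41.2). The same animal stood at 0.947 CPM for RPS4Y1, against 350.5 to 406 CPM in the others. Animal 113 stood at 0.248 CPM for IL6 (others 0.0364 to 0.0463) and 22.2 CPM for ITLN1 (others 16.3 to 16.7), and animal 101 at 8.43 CPM for PRPH (others 6.16 to 6.53). Groups of 3 and 2 animals were too small to be examined in this way.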

How the results depend on the processing

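The 109 genes called between LPS + Beta-Ac and term kept their sign under every alternative in which they were tested, but the number of calls did not. With only the 5 animals compared, 7 genes were called higher and 6 lower. In a fit of 12 animals, without those delivered 16 hours after LPS, 60 were called higher and 34 lower. That fit kept 81 of the 109 calls. With limma-voom 43 were called higher, and with sample quality weights 14 higher and 24 lower. Leaving out 1 of the 5 animals gave 11 to 114 genes called higher and 6 to 22 called lower. Calls between LPS + Beta-Ac and LPS at 5 days, 17 in number, became 9 in the fit of 12 animals, 2 with limma-voom, 94 with quality weights, and 4 to 57 when 1 animal was left out. The cause of these changes was not tested, and the fits with limma-voom and with quality weights used all 16 animals. Other scalings, filters and prior counts gave 48 to 79 genes called higher and 32 to 43 called lower, and 141 genes passed without a minimum on the fold.

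Differences that changed sign when 1 animal was left out belonged to uncalled genes. Their log2 fold changes ranged from -0.10 to 0.58 for ACTA2, -0.0622 to 1.06 for APOE, -0.42 to 0.0182 for AQP4, -1.70 to 0.0205 for BHLHE40, -0.48 to 0.27 for CAPS, -0.0024 to 0.42 for COL1A2, -0.0151 to 0.32 for COL4A2, -6.17 to 3.45 for DDX3Y and -0.33 to 0.43 for EPAS1, which was -0.0342 when scaled by total counts. They ranged from -0.10 to 0.12 for FABP5, -0.67 to 0.11 for IGF2, -0.90 to 0.17 for IL7R, -1.09 to 0.33 for KRT7, -0.0610 to 0.43 for LPCAT1, -0.16 to 0.0783 for LTBP4, -0.50 to 0.42 for MACF1 and -0.49 to 0.31 for MYH11. For the rest they ranged from -1.41 to 0.0698 for MYL7, -0.46 to 0.18 for PER1, -4.85 to 3.69 for RPS4Y1, -0.0375 to 0.91 for SFTPA1, -0.80 to 0.46 for TF and -0.18 to 0.0347 for TG.

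No paired analysis was possible because the groups share no animal numbers.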
